A study of Homo sapiens with 12 samples.

Results

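The innate immune system reads nucleic acids through a small set of receptors, and 10 genes of that set were followed here in JJN3, a human multiple myeloma cell line. They were taken by symbol from the 59276 gene symbols of the RNA-seq table: DDX58 (RIG-I), IFIH1 (MDA5), DHX58 (LGP2), EIF2AK2 (PKR) and TLR3 for RNA, CGAS, IFI16 and ZBP1 for DNA or left-handed nucleic acid, and MAVS and STING1, the adaptors on which the cytosolic RNA and DNA arms converge. The table has 1 entry for each of the 10 symbols.

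RNA was sequenced from 12 samples in 4 groups of 3 replicates each. JJN3 cells labelled DMSO received vehicle and those labelled MS023 received 10 µM of MS023, an inhibitor of type I protein arginine methyltransferases, in both cases for 3 days. In the other 2 groups, JJN3 cells carried Cas9 from a lentivirus together with a second, puromycin-selected lentivirus that expresses a guide RNA when doxycycline is given. Doxycycline was added for 3 days to cells with a control guide (isgCtrl) and to cells with 1 guide against PRMT1 (iPRMT1, here PRMT1-KO). PRMT1 encodes the main type I arginine methyltransferase of mammalian cells. Both guide groups therefore share Cas9, the vectors, the selection and doxycycline. The sources used here do not say whether the DMSO and MS023 cells also carried Cas9 or received doxycycline. The PRMT1-KO cells were a selected population rather than a described clone, so unedited cells may have been sequenced together with edited ones. The share of edited cells in these samples was not tested. The paper reports from a western blot that PRMT1 was efficiently deleted after induction. Nothing in the labels says that replicates came from separate cultures, so p-values measure the spread between these samples, which may be technical.

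Expression was deposited as log2(TPM+1), where TPM is an abundance scaled for transcript length and for the library's total. Each sample had between 20988 and 22241 genes above 0, and TPM add up to 1e+06 in every sample, so the read count behind a value is unknown. The methods state a minimum number of read pairs per sample but not that of each library. PRMT1 mRNA in PRMT1-KO cells was 35.4% of that in isgCtrl cells. Of 8 plasma cell markers, 5 (SDC1, TNFRSF17, IRF4, XBP1 and PRDM1) were above 1 TPM in all 12 samples. Of the others, MZB1, a chaperone of antibody-secreting cells, was 105 TPM in DMSO and 178 TPM in MS023 cells. It was 2.01 TPM in isgCtrl and 1.01 TPM in PRMT1-KO cells. SLAMF7 was 9.32, 52.2, 0.369 and 0.463 TPM in the same order, and CD38 ran from 0.734 to 5.41 TPM over the 12 samples. All 5 T cell markers were below 1 TPM in every sample, with CD3G listed at 0 throughout. Their summed level ran from 0.295 to 1.25 TPM, and that of 5 monocyte and macrophage markers from 0.0761 to 3.09 TPM. Of 4 epithelial markers, EPCAM (58.5 to 92.5 TPM) and KRT18 (16.1 to 31.3 TPM) were above 1 TPM in all samples, and KRT8 (0.401 to 2.57 TPM) and CDH1 (0.246 to 2.57 TPM) were not. The summed level of 4 fibroblast markers was 0.827 to 2.48 TPM in DMSO, 3.80 to 4.50 TPM in MS023, 1.05 to 11.9 TPM in isgCtrl and 0.285 to 1.72 TPM in PRMT1-KO samples, and the part of this in the results was not tested.

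RIG-I and MDA5 are cytosolic helicases that recognise, respectively, short or triphosphate-bearing and long double-stranded RNA, and both signal through MAVS on mitochondria. LGP2 is a related helicase without a signalling domain, TLR3 reads double-stranded RNA in endosomes through TRIF, and PKR is a kinase that stops translation when it binds double-stranded RNA. cGAS makes a cyclic dinucleotide when it binds DNA, STING receives this messenger on the endoplasmic reticulum, IFI16 binds DNA in the nucleus and cytosol, and ZBP1 binds Z-form nucleic acid and can start necroptosis. MAVS, TRIF and STING all lead to TBK1 and IRF3 and from there to interferon genes. Several of the sensors are themselves induced by interferon.

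For each gene it was asked whether MS023 changed it against DMSO, whether the PRMT1 guide changed it against isgCtrl, and how far isgCtrl lay from DMSO before either. A gene entered limma, on the 6 samples of a comparison, when the mean log2(TPM+1) of at least 1 of the groups exceeded 1. A gene was called when its Benjamini-Hochberg adjusted p was under 0.05 and its absolute log2 fold change was above 0.48. A fold change on this scale understates the change of low genes, and a two-sided exact permutation test of 3 against 3 samples cannot give p below 0.1. In each of these comparisons 7 of the 10 genes passed this level filter, all of them in both groups, and DDX58, DHX58 and TLR3 were below it.

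With MS023, STING1, ZBP1 and IFI16 rose and IFIH1 fell, while MAVS, CGAS and EIF2AK2 did not pass both thresholds. Thus 4 of 7 were called, beside 30.9% of all 12903 genes tested, with 3 higher (11.6% of all genes) and 1 lower (19.3%). Calls over all genes were 62.4% lower, and this share was 50.5% after median-ratio scaling and 50.03% after quantile normalization. The 3 MS023 and 3 DMSO samples did not overlap for 5 of the 7 genes, against 59.5% of all genes. The median log2 fold change of the 7 genes was 0.39, and that of all genes tested was -0.11.

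With the PRMT1 guide, only IFI16 among the 7 was called, and it was higher. Over all 12285 genes 0.781% were called, 0.415% higher and 0.366% lower. The lower share of those calls was 46.9%, and it was 31.6% after median-ratio scaling and 30.8% after quantile normalization. The groups did not overlap for 4 of the 7 genes, against 26.7% of all genes, and 2 of the 7 had an unadjusted p under 0.05. Their median log2 fold change was 0.00, against -0.04 over all genes tested.

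Between the control groups, IFI16 and ZBP1 were lower in isgCtrl than in DMSO cells. These 2 of 7 genes stood beside 13.9% called of 12661 genes, 7.23% higher and 6.7% lower. Of those calls 48.1% were lower, or 58.5% after median-ratio scaling and 52.9% after quantile normalization. Samples did not overlap for 5 of the 7 genes, against 51.7% of all genes. Because it is not stated which of Cas9, a vector, selection and doxycycline the DMSO cells had, the parts of these and of the vehicle in the comparison cannot be told apart. MS023 against DMSO and isgCtrl against DMSO share the DMSO samples, and the latter shares the isgCtrl samples with PRMT1-KO against isgCtrl.

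**Figure D1:**
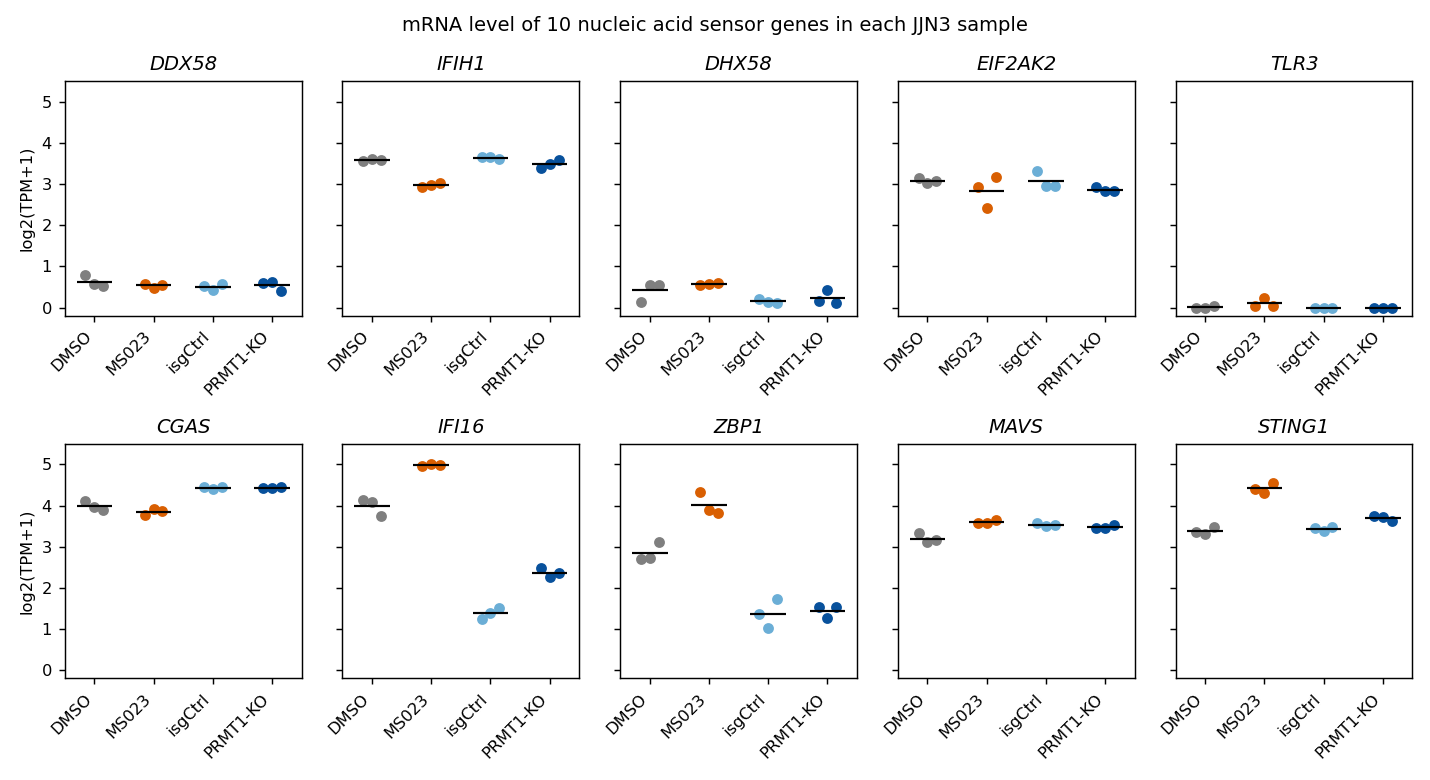
Level of each of the 10 genes as log2(TPM+1) (vertical axis) in every sample, by group (horizontal axis). Points are samples and bars are the means of 3 replicates. IFI16 ran from 1.25 in an isgCtrl sample to 5.01 in an MS023 sample, whereas DDX58, DHX58 and TLR3 stayed below 1 in all 12 samples.

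Among the RNA sensors, IFIH1 had the highest level and was the one that changed. IFIH1 lies on the minus strand of chromosome 2 at 162267074 to 162318684 (GRCh38, GENCODE v44), and all 10 genes are annotated as protein-coding. It was 10.8, 11.1 and 11.1 TPM in the 3 DMSO samples and 6.66, 6.88 and 7.15 TPM with MS023. All treated samples lay below all vehicle samples, and the mean with MS023 was 62.8% of that in DMSO. The log2 fold change was -0.60 (standard error, SE, of 0.06; limma, Benjamini-Hochberg adjusted p = 0.000644; exact two-sided permutation p = 0.1). The call rests on the fold threshold under 1 of the 2 other scalings, since quantile normalization gave -0.46 with an adjusted p of 0.00179 in limma. Less IFIH1 mRNA per cell and fewer cells with it cannot be told apart in these bulk samples. Guide-carrying cells kept IFIH1 close to its DMSO level. It was 11.5, 11.6 and 11.3 TPM in isgCtrl and 9.52, 10.2 and 11.1 TPM in PRMT1-KO samples. The PRMT1-KO samples were all below the isgCtrl samples, with a log2 fold change of -0.15 (95% interval -0.31 to 0.01, limma with Benjamini-Hochberg adjusted p = 0.296). From high to low the groups ran isgCtrl, DMSO, PRMT1-KO and MS023, and the spans of DMSO and PRMT1-KO overlapped.

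The promoter windows of IFIH1 and EIF2AK2 are shown because both hold the paired GAAA sites that interferon regulatory factors bind. The windows are RefSeq's for GRCh38.p14, from 250 bases before to 50 bases after the annotated start, written 5′ to 3′ on the gene's strand, with each match to GAAANNGAAA on either strand in capitals. IFIH1 is at chr2:162318635-162318934 on the minus strand and EIF2AK2 at chr2:37156931-37157230 on the minus strand.
IFIH1: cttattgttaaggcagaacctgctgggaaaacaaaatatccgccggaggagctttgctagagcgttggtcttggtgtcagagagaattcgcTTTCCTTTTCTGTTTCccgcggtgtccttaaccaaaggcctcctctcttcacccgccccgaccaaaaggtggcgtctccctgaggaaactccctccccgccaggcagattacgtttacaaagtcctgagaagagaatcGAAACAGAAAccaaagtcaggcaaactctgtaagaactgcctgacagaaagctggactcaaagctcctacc
EIF2AK2: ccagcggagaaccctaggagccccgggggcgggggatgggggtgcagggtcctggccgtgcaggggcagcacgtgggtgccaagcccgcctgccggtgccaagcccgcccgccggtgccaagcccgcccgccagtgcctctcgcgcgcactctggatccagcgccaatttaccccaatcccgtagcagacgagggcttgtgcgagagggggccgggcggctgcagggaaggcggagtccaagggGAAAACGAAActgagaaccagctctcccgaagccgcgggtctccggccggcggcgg
In IFIH1 the motif was found 3 times. One match read on the gene's strand begins 21 bases before the start, and the other two read on the opposite strand, begin 153 and 159 bases before it and overlap each other. EIF2AK2 has 1 match, 6 bases before this RefSeq start, and its whole window lies inside the gene's span in GENCODE. The motif was present in 3.57% of 35116 RefSeq promoter windows of this length. A match is a string of letters and does not show binding.

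EIF2AK2 (chromosome 2, 37099210 to 37157522, minus strand) was expressed in all groups but did not pass the test in any comparison. It was 7.83, 7.09 and 7.48 TPM in DMSO samples and 6.62, 4.33 and 8.04 TPM in MS023 samples. The treated samples thus spanned the vehicle samples, with 1 of them well below the others. The log2 fold change was -0.24 (95% interval -0.71 to 0.23, limma with Benjamini-Hochberg adjusted p = 0.34), and it was -0.03 without MS023 replicate 2. With guides, EIF2AK2 was 8.89, 6.72 and 6.74 TPM in isgCtrl and 6.55, 6.13 and 6.16 TPM in PRMT1-KO samples. The PRMT1-KO samples were all lower, yet the log2 fold change of -0.20 (95% interval -0.47 to 0.06) had an adjusted p of 0.366 by Benjamini-Hochberg in limma.

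The other RNA sensors were scarcely expressed. DDX58 (chromosome 9, 32455302 to 32526208, minus strand, named RIGI in the annotation) was 0.425 to 0.730 TPM in DMSO and 0.385 to 0.494 TPM in MS023 samples. It was 0.354 to 0.482 TPM in isgCtrl and 0.329 to 0.533 TPM in PRMT1-KO samples, and all groups overlapped. DHX58 (chromosome 17, 42101404 to 42112714, minus strand) was 0.106 to 0.470 TPM with DMSO and 0.469 to 0.508 TPM with MS023. It was 0.0847 to 0.159 TPM in isgCtrl and 0.0754 to 0.354 TPM in PRMT1-KO samples, again with overlapping spans. TLR3 (chromosome 4, 186068911 to 186088073, plus strand) was listed at 0 in all isgCtrl and PRMT1-KO samples and in 2 of 3 DMSO samples. With MS023 it was 0.0315, 0.165 and 0.021 TPM. None of these 3 genes passed the level filter. When every gene above 0 was fitted in limma, the Benjamini-Hochberg adjusted p for MS023 against DMSO was 0.569 for DDX58, 0.504 for DHX58 and 0.471 for TLR3. The read counts behind such levels are unknown.

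Of the DNA sensors, IFI16 was the one called in all 3 comparisons. It lies on chromosome 1 at 158999968 to 159055155 on the plus strand. Vehicle samples had 16.5, 15.9 and 12.3 TPM and MS023 samples 30.2, 31.2 and 30.9 TPM. The MS023 samples were closely grouped and all above DMSO, at a ratio of mean TPM of 2.06. The log2 fold change was 1.01 (SE 0.12; limma, Benjamini-Hochberg adjusted p = 0.00105; exact two-sided permutation p = 0.1). In cells with the control guide IFI16 was 1.38, 1.63 and 1.85 TPM, that is 10.9% of the DMSO mean. This difference had a log2 fold change of -2.60 (SE 0.13; limma, Benjamini-Hochberg adjusted p = 0.000205). PRMT1-KO samples held 4.62, 3.79 and 4.12 TPM, all above isgCtrl and all below DMSO. Against isgCtrl the log2 fold change was 0.98 (SE 0.09; limma, Benjamini-Hochberg adjusted p = 0.0239; exact two-sided permutation p = 0.1), and the ratio of mean TPM was 2.58. This call did not hold when any 1 of the 6 samples was left out, with log2 fold changes of 0.92 to 1.05 and adjusted p of 0.0614 to 0.104 in limma. All 4 groups of IFI16 were separated from their neighbours in the order MS023, DMSO, PRMT1-KO and isgCtrl.

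IFI16 has RefSeq start sites at 2 places, both inside the gene's span in GENCODE, and their windows are shown because the gene called in all 3 comparisons has no match to GAAANNGAAA or to the STAT motif TTCNNNGAA in either. They lie at chr1:159008741-159009040 and chr1:159009657-159009956 on the plus strand of GRCh38.p14, in lower case throughout since there is no match to mark.
IFI16, upstream window: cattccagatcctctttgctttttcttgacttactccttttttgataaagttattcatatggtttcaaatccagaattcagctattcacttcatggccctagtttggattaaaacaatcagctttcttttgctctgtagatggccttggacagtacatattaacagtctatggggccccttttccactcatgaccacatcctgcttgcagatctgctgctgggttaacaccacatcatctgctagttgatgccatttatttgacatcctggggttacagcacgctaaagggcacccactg
IFI16, downstream window: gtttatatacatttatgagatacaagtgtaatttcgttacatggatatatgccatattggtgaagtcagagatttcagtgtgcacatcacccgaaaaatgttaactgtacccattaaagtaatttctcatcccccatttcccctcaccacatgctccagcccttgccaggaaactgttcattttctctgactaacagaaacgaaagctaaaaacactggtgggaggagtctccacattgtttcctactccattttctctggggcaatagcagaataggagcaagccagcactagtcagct
The STAT motif was present in 7.66% of the 35116 windows. Among the 6 genes with a RefSeq window (EIF2AK2, IFI16, IFIH1, MAVS, RIGI and TLR3), TLR3 had 2 matches to it and 1 to GAAANNGAAA, while MAVS and RIGI had neither motif. DHX58, STING1, CGAS and ZBP1 had no window there. The absence of a match says only that these letters are not in the window.

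ZBP1 resembled IFI16 in its response to MS023 and in its low level with guides, but not with the PRMT1 guide. ZBP1 lies on chromosome 20 at 57603846 to 57620576 on the minus strand. It was 5.55, 5.60 and 7.62 TPM with DMSO and 19.0, 13.8 and 13.1 TPM with MS023. Every treated sample was above every vehicle sample, and the mean was 2.45 times that of DMSO. The log2 fold change was 1.16 (SE 0.17; limma, Benjamini-Hochberg adjusted p = 0.00289). In isgCtrl samples ZBP1 was 1.57, 1.02 and 2.34 TPM, a log2 fold change of -1.47 against DMSO (standard error 0.21, limma with Benjamini-Hochberg adjusted p = 0.00477). PRMT1-KO samples had 1.90, 1.39 and 1.90 TPM and lay within the isgCtrl span, with a log2 fold change of 0.07 (95% interval -0.40 to 0.55, limma with Benjamini-Hochberg adjusted p = 0.875). DMSO and MS023 cells were each separated from their neighbours in the order of levels, and the guide groups were not separated from each other.

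CGAS (chromosome 6, 73413515 to 73452297, minus strand) was expressed in all groups and did not pass the test with MS023 or with the PRMT1 guide. It was 16.2, 14.5 and 13.9 TPM in DMSO and 12.6, 14.0 and 13.6 TPM in MS023 samples, which overlapped. The log2 fold change was -0.14 (95% interval -0.34 to 0.06, limma with Benjamini-Hochberg adjusted p = 0.203), and it was 0.02 after quantile normalization. The guide groups had more CGAS than DMSO cells, unlike IFI16 and ZBP1. Samples of isgCtrl held 20.9, 20.1 and 20.8 TPM and PRMT1-KO samples 20.5, 20.6 and 20.8 TPM, with a log2 fold change between them of 0.00 (95% interval -0.11 to 0.11). Against DMSO the isgCtrl cells were higher by 0.45 on the log2 scale (limma, Benjamini-Hochberg adjusted p = 0.00651), which is under the fold threshold.

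Of the adaptors, STING1 rose with MS023 to about the same fold as IFI16. STING1 lies on chromosome 5 at 139475533 to 139482935 on the minus strand. It was 9.25, 8.86 and 10.1 TPM in DMSO and 20.1, 18.6 and 22.4 TPM in MS023 samples, without overlap. The mean TPM ratio was 2.16, and the log2 fold change was 1.03 (SE 0.09; limma, Benjamini-Hochberg adjusted p = 0.000444). With the control guide it stayed near the vehicle level, at 9.97, 9.49 and 10.1 TPM. PRMT1-KO samples had 12.5, 12.1 and 11.2 TPM, all above the DMSO samples and below the MS023 samples. All PRMT1-KO samples were above all isgCtrl samples, but the log2 fold change of 0.25 (95% interval 0.11 to 0.39) had a Benjamini-Hochberg adjusted p of 0.116 in limma. In the order of levels, MS023 and PRMT1-KO were each separated from the next group, and isgCtrl and DMSO overlapped.

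MAVS (chromosome 20, 3846799 to 3876123, plus strand) was more even. DMSO samples had 9.09, 7.61 and 7.91 TPM and MS023 samples 10.9, 10.9 and 11.4 TPM, all above DMSO. Its log2 fold change of 0.39 (standard error 0.08, limma with Benjamini-Hochberg adjusted p = 0.00903) was below the fold threshold, and it passed after median-ratio scaling (0.49) and quantile normalization (0.54). In isgCtrl it was 11, 10.3 and 10.6 TPM, higher than in DMSO by 0.34 on the log2 scale (limma, Benjamini-Hochberg adjusted p = 0.0205). PRMT1-KO samples had 9.93, 10.0 and 10.5 TPM and overlapped with isgCtrl, with a log2 fold change of -0.06 (95% interval -0.19 to 0.07). DMSO was the lowest group and the only one separated from its neighbour.

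**Figure D2:**
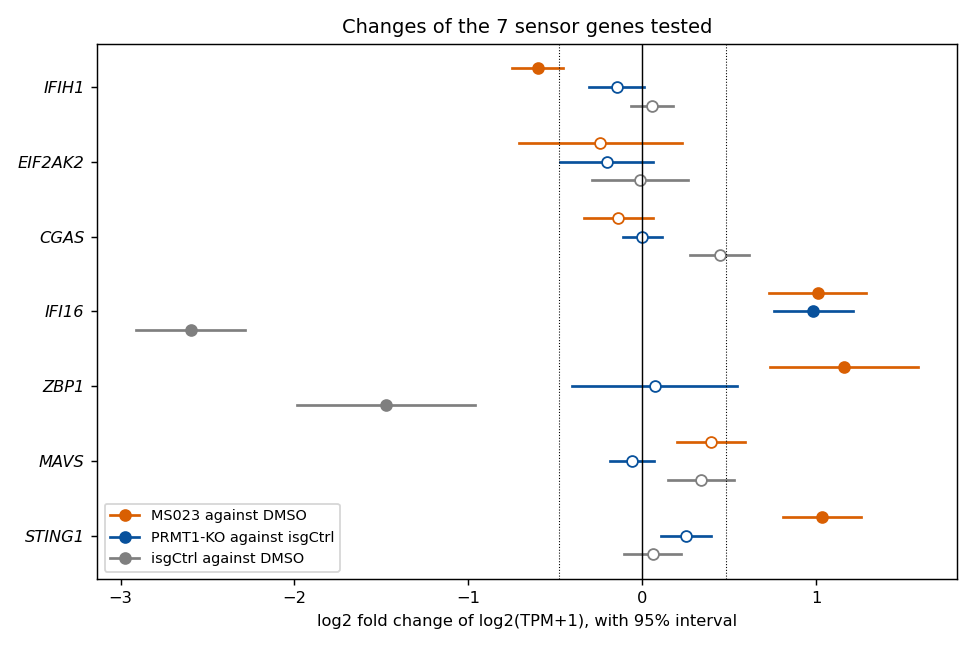
Log2 fold change of log2(TPM+1) with its 95% interval from limma (horizontal axis) for the 7 genes tested (vertical axis) in 3 comparisons, coloured by comparison. Filled points passed both thresholds, open points did not, and dotted lines mark a fold change of 0.48 either way. On this scale IFI16 had nearly the same change with MS023 (1.01) as with the PRMT1 guide (0.98), whereas STING1 (1.03 and 0.25) and ZBP1 (1.16 and 0.07) did not. The ratios of mean TPM of IFI16 were 2.06 and 2.58, and its call with the guide did not hold with any 1 sample left out.

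The effect of MS023 minus that of the PRMT1 guide was tested in one fit of all 12 samples, with an adjusted p under 0.05 as the call. It differed for 4 of the 7 genes tested, and for 35.6% of all 13256 genes. The difference was 1.09 for ZBP1 (limma, Benjamini-Hochberg adjusted p = 0.0125), 0.78 for STING1 (adjusted p = 0.000354), 0.45 for MAVS (adjusted p = 0.00347) and -0.46 for IFIH1 (adjusted p = 0.00168), all on the log2 scale. For IFI16 it was 0.02, with a 95% interval of -0.32 to 0.37 and a Benjamini-Hochberg adjusted p of 0.921 in limma. That interval allows either effect to be the larger, and with a pseudocount of 0.1 in place of 1 the value was -0.27. The interval was -0.33 to 0.05 for CGAS and -0.57 to 0.49 for EIF2AK2. The groups also differ in starting level, since IFI16 and ZBP1 began at 14.9 and 6.26 TPM in DMSO cells but at 1.62 and 1.64 TPM in isgCtrl cells, and the part of this in the differences was not tested.

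The partners of these sensors were described by 10 lists of 148 genes in all, with USP18 in 2 of them. With MS023, 118 of them could be tested and 47 were called, 30 higher and 17 lower, beside 30.9% of all genes, 11.6% higher and 19.3% lower. Of the 30, 10 (USP18, TLR7, IRAK2, OAS2, OASL, RIPK3, IFNL1, IFIT1, IFIT2 and IFIT3) passed the level filter through the MS023 group alone, so that a higher value was built into their being tested. When every gene above 0 was fitted, 29 of 127 list genes were higher and 17 lower, beside 5.04% and 8.04% of all 28349 genes, and of those 10 genes all but TLR7 and OAS2 were called. Most of the 28349 genes were below the level filter, which 118 of the 127 list genes passed, so these shares compare genes of unlike level. With the PRMT1 guide, 104 were tested in limma, none was called at a Benjamini-Hochberg adjusted p under 0.05 with the fold threshold, and 19 had an unadjusted p under 0.05, as had 18.6% of all genes. In isgCtrl against DMSO, 21 of 109 were called, 6 higher and 15 lower, beside 13.9% of all genes, 7.23% higher and 6.7% lower. Of the 15, 6 passed the level filter through the DMSO group alone (AIM2, OAS1, MLKL, MX1, IFI44 and CXCL10), and all 6 were called lower when every gene above 0 was fitted (limma, Benjamini-Hochberg adjusted p of 0.0013 to 0.0258).

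In the list of RIG-I and MDA5 cofactors and brakes, 5 of 16 genes tested fell with MS023, beside 19.3% of all genes, and the other 11 were not called. The 5 were NLRX1 (log2 fold change -0.91), a mitochondrial protein that restrains MAVS, RNF135 (-0.91), a ubiquitin ligase that activates RIG-I, PRKRA (-0.88), the activator protein of PKR known as PACT, and the helicases DHX15 (-0.68) and DHX9 (-0.63). The list's median was -0.26. PRKRA also came close to a call with the PRMT1 guide. It was 22.4 TPM in DMSO, 11.7 TPM with MS023, 35.6 TPM in isgCtrl and 23.9 TPM in PRMT1-KO cells, and its PRMT1-KO samples (22.9 to 25.5 TPM) were all below isgCtrl (32.1 to 39.0 TPM). The log2 fold change there was -0.56 with a Benjamini-Hochberg adjusted p of 0.0544 in limma, and the call was made when all 12 samples shared one fit (adjusted p = 0.0181). It was not made with any 1 sample left out (limma, Benjamini-Hochberg adjusted p of 0.0895 to 0.165). In isgCtrl against DMSO it was 0.65 with an adjusted p of 0.00924. TRIM25, a ubiquitin ligase for RIG-I, was 21.1 TPM with DMSO and 23.6 TPM with MS023 (log2 fold change 0.15, 95% interval -0.17 to 0.46).

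In the signalling list that leads from MAVS, TRIF and STING to IRF3, 5 of 17 genes rose with MS023, beside 11.6% of all genes, and the list's median was 0.12. IRF7, the interferon-inducible factor that amplifies interferon transcription, went from 5.67 to 20.2 TPM (log2 fold change 1.66, limma with Benjamini-Hochberg adjusted p = 0.000317). The other 4 were TBKBP1 (1.04), an adaptor of TBK1, the ubiquitin ligase TRIM21 (0.74), TRADD (0.73), and TICAM1 (0.48), which encodes TRIF and sits at the fold threshold. TICAM1 was no longer called in 2 of 6 fits that left out a sample. It was 10.2 TPM in DMSO, 14.6 TPM in MS023, 14.8 TPM in isgCtrl and 14.9 TPM in PRMT1-KO cells. The kinase TBK1 itself was 16.4 TPM in DMSO and 12.8 TPM in MS023 cells, a log2 fold change of -0.34 (adjusted p = 0.0154 by Benjamini-Hochberg in limma) that is under the fold threshold. IRF3 was 94.9 and 119 TPM, a log2 fold change of 0.32 (adjusted p = 0.026), also under it. With the PRMT1 guide IKBKE, a kinase related to TBK1, had a log2 fold change of 0.33 (limma, Benjamini-Hochberg adjusted p = 0.0427), again under the fold threshold, and IRF7 had 0.10 (95% interval -0.10 to 0.31).

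Among the cGAS and STING regulators 3 of 17 rose with MS023, a share near the 11.6% of all genes. They were INSIG1 (190 to 668 TPM, log2 fold change 1.81), a sterol-regulated membrane protein of the endoplasmic reticulum, USP18 (1.17), which removes ISG15 from proteins and helps to stabilise STING, and TRIM56 (0.70), a ubiquitin ligase that acts on cGAS and STING. TREX1, the exonuclease that destroys cytosolic DNA, was 25.8 TPM in DMSO and 18.8 TPM in MS023 cells (log2 fold change -0.44, adjusted p = 0.00546 by Benjamini-Hochberg in limma), short of the fold threshold. In the list of other DNA sensors and inflammasome genes, 1 of 13 rose and 3 fell, near the 11.6% and 19.3% of all genes. AIM2, which nucleates an inflammasome on DNA, rose (1.11), and the DNA repair genes MRE11 (-1.27) and RAD50 (-1.01) and HNRNPA2B1 (-0.74), an RNA-binding protein, fell.

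Endosomal Toll-like receptors and their partners had 3 of 10 higher with MS023, beside 11.6% of all genes, and 2 lower, near the 19.3% of all genes. Of the 3, 2 (TLR7 and IRAK2) had passed the level filter through MS023 alone. TLR7, a receptor for single-stranded RNA, had a log2 fold change of 1.02 with an adjusted p of 0.0188 by Benjamini-Hochberg in limma. Its adjusted p reached up to 0.0578 with a sample left out, exceeded 0.05 in 4 of those 6 fits, and was 0.0562 when every gene above 0 was fitted. CXorf21, which encodes the IRF5-recruiting adaptor TASL, fell (-1.32), as did the kinase IRAK4 (-0.57, or -0.48 and -0.43 after the other scalings, both short of the threshold). Genes that remove or edit self nucleic acid had 1 of 14 higher, near the 11.6% of all genes, and 5 lower, beside 19.3%. The 3 subunits of ribonuclease H2, RNASEH2A (-1.04), RNASEH2B (-0.91) and RNASEH2C (-0.91), fell together, and DNASE2 (0.85), a lysosomal DNA nuclease, rose. ADAR, which edits double-stranded RNA and so hides it from MDA5 and PKR, was 86.1 TPM with DMSO and 80.1 TPM with MS023, a log2 fold change of -0.10 (95% interval -0.32 to 0.11).

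The PKR and OAS branch had 5 of 14 higher and 1 lower with MS023, beside 11.6% and 19.3% of all genes. The 2′-5′-oligoadenylate synthetase family genes OASL (1.90) and OAS1 (1.25) rose, as did PPP1R15A (1.22), which reverses the translational arrest that PKR causes, and DNAJC3 (0.70), a chaperone that inhibits PKR. OAS2 (1.18) was called but, like OASL, passed the level filter through MS023 alone. With every gene above 0 fitted, its Benjamini-Hochberg adjusted p in limma was 0.0626 and that of OASL 0.0003. OASL went from 0.152 TPM in DMSO to 3.31 TPM in MS023 cells, whereas it was 0.148 TPM in isgCtrl and 0.311 TPM in PRMT1-KO cells. In the ZBP1 and necroptosis branch 2 of 5 genes rose, beside 11.6% of all genes. They were CFLAR (1.32), an inhibitor of caspase-8, and RIPK3 (0.85), the kinase that ZBP1 engages. RIPK3 passed the level filter through MS023 alone (Benjamini-Hochberg adjusted p = 0.00149 in limma with every gene above 0 fitted) and was low, at 0.190 TPM in DMSO and 1.14 TPM in MS023 cells, and it was 0.0347 TPM in isgCtrl and 0.0281 TPM in PRMT1-KO cells. MLKL, the executor of necroptosis, was 1.44 TPM in DMSO and 2.17 TPM with MS023 but 0.135 TPM in isgCtrl cells, where its log2 fold change of -1.11 against DMSO was called (limma, Benjamini-Hochberg adjusted p = 0.000666).

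Downstream, 19 of 22 interferon genes were listed at 0 in every sample, IFNB1 among them. IFNL1, a type III interferon, was 0.653 TPM with DMSO and 1.33 TPM with MS023, a log2 fold change of 0.49 with an adjusted p of 0.0171 by Benjamini-Hochberg in limma. It passed the level filter through MS023 alone, was no longer called in 4 of 6 fits that left out a sample, and had an adjusted p of 0.041 with every gene above 0 fitted. IFNG fell from 13.5 to 5.67 TPM (-1.11). Of 13 interferon-stimulated reporter genes, 11 passed the level filter and 10 were called higher with MS023, 4 of them having passed through MS023 alone. With every gene above 0 fitted, 11 of the 13 were higher, beside 5.04% of all genes, most of which were below the level filter. CXCL10 rose from 20.7 to 191 TPM (3.15), IFI6 from 9.57 to 32.8 TPM (1.69) and CCL5 by a log2 fold change of 1.66. The PRMT1 guide gave no call among the 5 reporters tested by Benjamini-Hochberg in limma, 2 of which had an unadjusted p under 0.05.

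In isgCtrl against DMSO, 4 of the 13 interferon-stimulated reporters were called lower, 3 were tested without a call and 6 were below the level filter. With every gene above 0 fitted, 5 of the 13 were lower, beside 2.94% of all genes, most of which were below the level filter. The 4 were CXCL10 (20.7 to 0.788 TPM, log2 fold change -3.64), IFI6 (9.57 to 1.67 TPM, -1.98), MX1 (3.69 to 0.420 TPM, -1.73) and IFI44 (-0.98). OAS1 (-0.89) and SAMHD1 (5.84 to 1.34 TPM, -1.53), which hydrolyses deoxynucleotides, were lower as well. Higher in isgCtrl were 6 genes, among them PRKRA (0.65) and PRKDC (0.64), the DNA-dependent protein kinase. PRMT1-KO samples were close to isgCtrl for the same reporters, with 0.672 TPM of CXCL10 and 0.425 TPM of MX1, while IFI6 had 2.96 TPM and a log2 fold change of 0.57 (limma, Benjamini-Hochberg adjusted p = 0.151).

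IFI16 belongs to the HIN-200 family of DNA-binding proteins, which sit next to each other on chromosome 1 and which were set side by side after their values had been seen. AIM2 had 8.87 TPM with DMSO, 20.0 TPM with MS023, 0.268 TPM in isgCtrl and 0.471 TPM in PRMT1-KO cells. Its log2 fold change was 1.11 with MS023 (limma, Benjamini-Hochberg adjusted p = 0.00129) and -2.96 in isgCtrl against DMSO (adjusted p = 0.000424). The same log2 fold changes of IFI16 were 1.01 and -2.60. In TPM, isgCtrl cells held 3.03% of the DMSO mean of AIM2 and 10.9% of that of IFI16. AIM2 passed the level filter in isgCtrl against DMSO through DMSO alone. Its Benjamini-Hochberg adjusted p in limma was 0.00144 with every gene above 0 fitted. With the PRMT1 guide AIM2 was too low to test, at 0.848, 0.341 and 0.224 TPM against 0.111, 0.150 and 0.545 TPM in isgCtrl, with overlapping spans. MNDA was listed at 0 in all samples, and PYHIN1 was at most 0.138 TPM. AIM2 and IFI16 were thus both called higher with MS023 and both called lower in isgCtrl against DMSO.

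**Figure D3:**
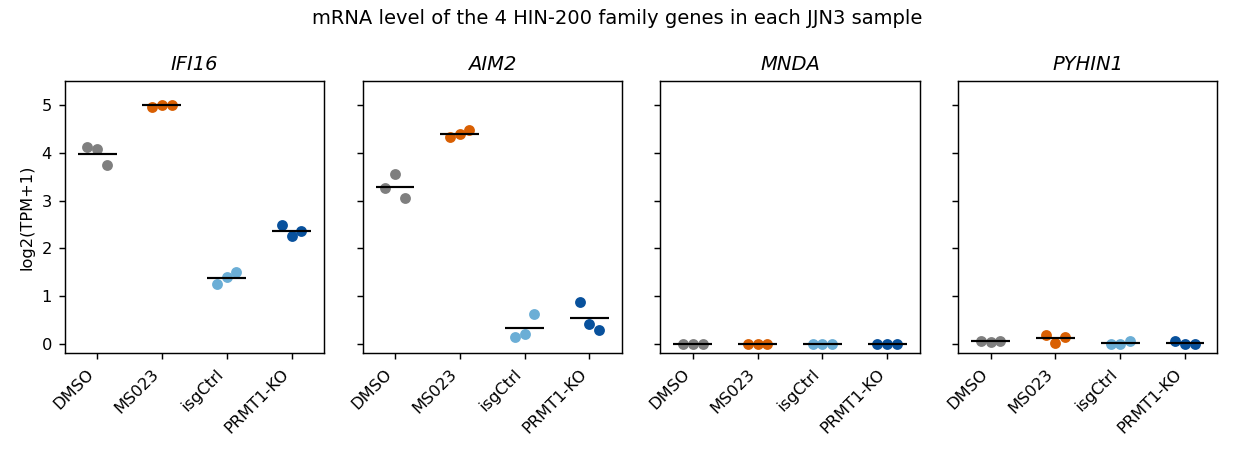
Level as log2(TPM+1) (vertical axis) of the 4 HIN-200 genes in every sample, by group (horizontal axis). Points are samples and bars are means of 3 replicates. AIM2 and IFI16 were highest with MS023 (means 4.39 and 4.99) and lowest in isgCtrl (0.33 and 1.38), while MNDA was at 0 throughout.

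For the 4 called genes, the 3 genes with the most similar log2(TPM+1) over the 12 samples were looked up among 12112 genes with a mean above 1. For IFI16 they were SRGN (Pearson's r = 0.994), ATOX1 (0.992) and LSR (0.992). For ZBP1 they were GTF2E2 (0.990), SEPTIN1 (0.990) and LAP3 (0.987), and for STING1 CYTH1 (0.994), NDEL1 (0.987) and AKNA (0.985). For IFIH1 they were BMP7 (0.990), ADAM9 (0.990) and GPALPP1 (0.987). These correlations describe 12 samples that fall into 4 groups, and all genes were read from the same libraries. SEPTIN1, like ZBP1, was highest with MS023 and lowest in isgCtrl, with mean log2(TPM+1) of 2.48 in DMSO, 3.89 in MS023, 0.67 in isgCtrl and 0.91 in PRMT1-KO cells. BMP7, like IFIH1, was lowest with MS023, with means of 6.54, 4.79, 6.74 and 6.32 in the same order.

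**Figure D4:**
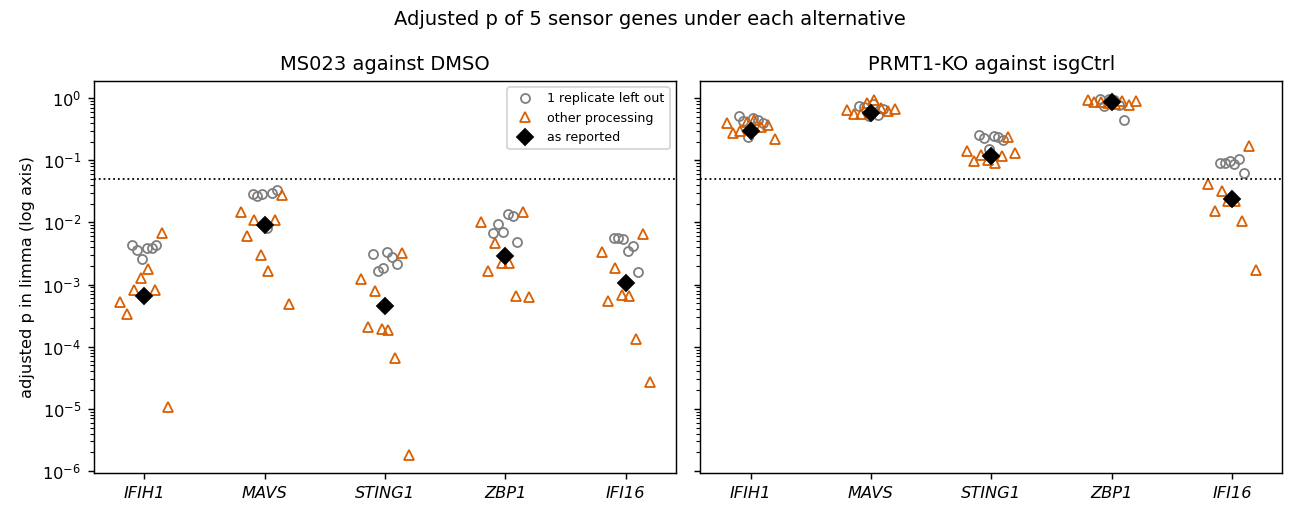
Benjamini-Hochberg adjusted p in limma (vertical axis, log scale) of 5 genes (horizontal axis) for MS023 against DMSO and for PRMT1-KO against isgCtrl, as reported, under other processing and with 1 replicate left out. The dotted line marks 0.05. With MS023 all values of the 5 genes were below it, and with the PRMT1 guide IFI16 lay on both sides, from 0.00174 with all 12 samples in one fit to 0.168.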

How the data were processed

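Gene expression was measured by RNA-seq of total RNA from 12 JJN3 samples. Per the labels and the methods, the authors used FastQC and Trimmomatic on the reads, STAR with hg38 and GENCODE transcripts for mapping and Salmon for quantification, and deposited log2 values of TPM+1 for each gene. Tool versions are not given in the sources used here. These log2 values were used as deposited, with no sample left out and a pseudocount of 1, and no count model was applied because TPM keep no depth.

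Groups came from the sample titles. Linear models in limma 3.58.1 (R 4.3.3), with eBayes without trend and no covariate, were fitted to all genes whose mean log2(TPM+1) exceeded 1 in at least 1 of the groups, on the 6 samples of a comparison or, for the difference of effects, on all 12. Values of p were adjusted by Benjamini-Hochberg over all genes tested. The code was tested on simulated data. The 10 genes and the partner lists were chosen with earlier results of these data known. Named genes are the 10, PRMT1, the fixed regulators (ADAR, TREX1, PRKRA, TRIM25, TBK1, IRF3, IRF7, TICAM1 and IFNB1), the 3 largest called changes of each list and the 3 genes most correlated with each called gene. Other list genes named (DHX15, DHX9, TRADD, IKBKE, HNRNPA2B1, AIM2 with its family, DNASE2, IRAK2, IFIT1, IFIT2, IFIT3, PPP1R15A, OAS2, DNAJC3, CCL5, MLKL, IFI44 and OAS1) and marker genes were added after their values were seen where the rule did not name them. Positions are from GENCODE v44 on GRCh38, the build of the files. Through RefSeq synonyms DDX58 was matched to its position as RIGI, and the list genes TASL and STEEP1 to the entries CXorf21 and CXorf56. Promoters are RefSeq's for GRCh38.p14. Alternatives were 3 other filters or pseudocounts, 2 scalings, eBayes with trend, a replicate block, all 12 samples in one fit, 2 fold thresholds and each replicate left out in turn.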

Additional observations from a re-analysis of the deposited data

Results flagged for a closer look

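The effect of MS023 differed from that of the PRMT1 guide for 4 of the 7 genes tested, beside 35.6% of all 13256 genes. This was limma's test of the difference over all 12 samples with Benjamini-Hochberg adjustment. The difference was 0.78 for STING1 (adjusted p = 0.000354), 1.09 for ZBP1 (adjusted p = 0.0125), -0.46 for IFIH1 (adjusted p = 0.00168) and 0.45 for MAVS (adjusted p = 0.00347), each as the log2 change with MS023 minus that with the PRMT1 guide. When each of the 12 samples was left out in turn, the difference ranged from 0.72 to 0.84 for STING1, from 0.91 to 1.27 for ZBP1, from -0.50 to -0.40 for IFIH1 and from 0.41 to 0.52 for MAVS, and all 4 stayed below an adjusted p of 0.05 in limma. The guide and the inhibitor also differ in their control cells, and the part of this in the differences was not tested.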

How the results depend on the processing

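Of 667 values of the 10 genes under alternatives, 616 did not turn sign and, where tested, kept their side of the thresholds or, where not, moved by at most 1 SD. The other filters, eBayes with trend, the replicate block, the fit of all 12 samples and the fold thresholds leave a fold change as it was. A sign could therefore turn only with the other pseudocount, the 2 scalings or a replicate left out. The count of the 10 genes called with MS023 was 4 with any 1 replicate left out. Without a fold threshold, calls with MS023 were 72 for list genes and 6300 for all genes, and above an absolute log2 fold change of 1 they were 24 and 1083. For PRMT1-KO against isgCtrl the 1 call among the 10 genes became 0 with the replicate block, above a fold change of 1 and with any 1 replicate left out (0 to 0). List genes called there were 1 with the filter in every sample, eBayes with trend and all 12 samples in one fit (PRKRA each time) and without a fold threshold (IKBKE), and 0 to 1 with a replicate left out. All genes called there, 96 as reported, were 48 with all genes above 0 fitted, 0 with the replicate block, 157 without a fold threshold, 9 above a fold change of 1 and 2 to 21 with a replicate left out. For isgCtrl against DMSO, calls without a fold threshold were 4 of the 10 genes, 46 list genes and 4373 genes, and above 1 they were 6 list genes and 369 genes. The difference of effects had 1 of the 10 genes and 921 genes above 1. The cause of these shifts was not tested, beyond the thresholds themselves and the smaller number of samples.

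Some signs turned. After quantile normalization, log2 fold changes were 0.017 for CGAS and -0.0298 for PRMT1 with MS023, 0.0497 for TBK1 with the PRMT1 guide, -0.0134 for IFIH1 in isgCtrl against DMSO and 0.0616 for EIF2AK2 in the difference of effects. After median-ratio scaling they were 0.0363 for TBK1 with the PRMT1 guide and 0.034 for EIF2AK2 in the difference, and with a pseudocount of 0.1 the difference for IFI16 was -0.27. With a replicate left out, values with the PRMT1 guide ran from -0.0713 to 0.105 for TBK1, -0.0116 to 0.0257 for TICAM1, -0.0143 to 0.011 for CGAS, -0.0481 to 0.0817 for TRIM25 and -0.11 to 0.25 for ZBP1. Those of EIF2AK2 in isgCtrl against DMSO ran from -0.13 to 0.0487, and the differences of effects from -0.10 to 0.10 for IFI16 and -0.20 to 0.18 for EIF2AK2. Of genes below the level filter, with the PRMT1 guide DDX58 (0.0313 as reported) was -0.0085 without PRMT1-KO replicate 2 and -0.0028 without isgCtrl replicate 2, and DHX58 (0.0746) was -0.028 without PRMT1-KO replicate 2. The difference of effects for DHX58 (0.083) was -0.0521 without DMSO replicate 1.

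Replicate numbers are shared between groups, and the labels do not say whether they pair the samples. Same-numbered deviations from the group means correlated at 0.02 to 0.10 for MS023 and DMSO, -0.14 to 0.07 for PRMT1-KO and isgCtrl, and -0.23 to -0.03 for isgCtrl and DMSO. Differently numbered ones correlated at -0.10 to 0.03, -0.10 to 0.17 and -0.10 to 0.13 in the same order. With 3 replicates per group these values cannot decide whether the samples are paired. With the replicate block in limma, IFI16 with the PRMT1 guide had a Benjamini-Hochberg adjusted p of 0.168 and PRMT1 itself 0.149, calls among the 10 genes stayed at 4 with MS023 and 2 in isgCtrl against DMSO, and the difference of effects kept 4.

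Limits are that the read counts behind the values are unknown, that DDX58, DHX58 and TLR3 were below the level filter, that each control group is 3 samples, and that mRNA levels say nothing of protein or of sensor activity.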
